A study of Mus musculus with 20 samples.

Results

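The secreted acute-phase genes Lcn2, C3, Saa1, Saa2, Saa3, Cfb, Cp, Slpi and Hp, were followed through all 20 RNA-seq libraries of a study of fluid flow in DC2 cells. They are 9 of the 21509 protein-coding genes listed in each of the 2 abundance tables, and they were found by their gene symbols. The group was put together with the levels of these genes already known, including the fall of Lcn2 and C3 between static replicates 1 to 3 and 4 to 6, so that contrast is described here and was not tested.

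DC2 is an immortalised line of principal cells from the distal caput of the mouse epididymis, and the libraries stand for cultures of this 1 line. A first set of libraries held 6 cultures kept for 3 h under a shear of 1 dyn/cm2 (flow) and 6 cultures without it (static). A second set held 4 cultures given siRNA that targets Ift88, a gene for a component of the intraflagellar transport that builds primary cilia, and 4 given control siRNA. According to the study's methods both siRNA groups were exposed to the same flow, which the sample labels do not name. The medium of all groups held dihydrotestosterone, an androgen, and the cells of the flow and static groups had been synchronised in low serum. For siRNA-treated cells the study's methods describe low-serum medium too, in a timeline given for its calcium measurements. The title of 1 library says flow and its treatment field says static, and it was counted as flow replicate 6. Abundances are TPM, transcript levels that are corrected for transcript length and sum to 1e+06 in every library, so they keep no count of reads and the counting error of a value is unknown.

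The acute-phase response is the release of defence proteins that follows infection or injury. The liver is its main source, but epithelia make several of the same proteins at their surface, driven by cytokines such as IL-1, IL-6, IL-17 and TNF through the transcription factors NF-kB, STAT3 and C/EBP. Lipocalin 2, the product of Lcn2, binds bacterial siderophores and so withholds iron. C3 is the central protein of complement, and Cfb encodes factor B, the protease partner of C3 in the alternative pathway. Saa1, Saa2 and Saa3 encode serum amyloid A proteins, lipid-binding proteins of acute inflammation. Cp encodes ceruloplasmin, a copper enzyme that oxidises iron, Hp encodes haptoglobin, which binds free haemoglobin, and Slpi encodes an inhibitor of neutrophil elastase.

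The genes lie on 5 chromosomes. In GENCODE M21 on GRCm38, Lcn2 (ENSMUSG00000026822) is at chr2:32384633-32388252 on the minus strand and Slpi (ENSMUSG00000017002) at chr2:164354070-164389095 on the minus strand. C3 (ENSMUSG00000024164) is at chr17:57203970-57228136 and Cfb (ENSMUSG00000090231) at chr17:34856374-34862518, both on the minus strand. Cp (ENSMUSG00000003617) is at chr3:19957054-20009145 on the plus strand and Hp (ENSMUSG00000031722) at chr8:109575128-109579172 on the minus strand. The serum amyloid genes are neighbours on chromosome 7, with Saa3 (ENSMUSG00000040026) at chr7:46711998-46715700 and Saa1 (ENSMUSG00000074115) at chr7:46740497-46742980 on the minus strand and Saa2 (ENSMUSG00000057465) at chr7:46751790-46754313 on the plus strand. Saa1 and Saa2 are close copies. Of the 579 different 31-base words in the annotated protein-coding transcripts of Saa1, 26.8% also occur in Saa2 and 4.84% in Saa3, while 1.09% of the 2566 words of Saa3 occur in Saa1. The split of reads between Saa1 and Saa2, both near 0, is therefore uncertain, and the level of Saa3 is less affected. Cfb shares 2246 exon bases with the read-through gene Gm20547 on the same strand, to which its reads can be assigned, and Gm20547 was at 0.26 TPM or less in all 20 libraries.

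Because Lcn2 and C3 moved together across the flow and static libraries and Saa3 stood high in the siRNA libraries, the sequence before the RefSeq transcription start of these 3 genes is shown. It comes from RefSeq on GRCm38.p6, reads 5′ to 3′ on the strand of the gene and ends at the start or before the first base annotated as untranslated. The stretches are chr2:32387798-32387989 for Lcn2, chr17:57228137-57228386 for C3 and chr7:46715701-46715926 for Saa3, all on the minus strand, and capitals mark a C/EBP motif on either strand. The start used for Lcn2 is the RefSeq one, and the gene as annotated in GENCODE M21 begins further upstream, so this stretch lies within it, unlike those of C3 and Saa3.
Lcn2: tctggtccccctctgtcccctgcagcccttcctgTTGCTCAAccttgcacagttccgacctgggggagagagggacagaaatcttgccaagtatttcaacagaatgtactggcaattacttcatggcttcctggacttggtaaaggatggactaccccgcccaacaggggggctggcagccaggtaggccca
C3: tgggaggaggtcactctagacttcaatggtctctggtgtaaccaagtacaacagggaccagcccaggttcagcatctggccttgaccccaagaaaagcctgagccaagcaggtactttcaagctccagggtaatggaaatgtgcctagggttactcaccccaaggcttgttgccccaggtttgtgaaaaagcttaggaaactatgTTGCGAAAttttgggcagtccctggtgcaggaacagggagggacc
Saa3: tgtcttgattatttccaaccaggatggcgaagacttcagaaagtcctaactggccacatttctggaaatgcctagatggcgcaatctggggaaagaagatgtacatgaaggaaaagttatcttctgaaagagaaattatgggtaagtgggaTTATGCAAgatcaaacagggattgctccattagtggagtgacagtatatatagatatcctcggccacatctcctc
Windows of 250 bases before the start were found for 7 of the 9 genes, 8 windows in all since Cp has 2 that overlap, and Cfb and Hp had none. The C/EBP motif TTGCNNAA was found on either strand in 7 of the 8 windows, at least 1 for each of the 7 genes, and in 9.57% of the 32841 windows of all genes. In C3 it began 45 bases before the start and in Lcn2 216 bases before it. The windows of Saa1 and Saa2 resemble each other, so they are not separate examples. The NF-kB consensus was found in 0 of the 7 genes and in 7.25% of all windows, and the STAT motif TTCNNNGAA in 0 of the 7 genes and in 7.02% of all windows. A match to these letters is not a site shown to be bound, and the lack of one says nothing beyond these 250 bases.

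Of the 9 genes, 4 reached a mean of 1 TPM over the flow and static libraries, Cp, Cfb, Lcn2 and C3, and 3 over the siRNA libraries, Saa3, Cp and Cfb. Per length and averaged over the 12 flow and static libraries, Cp was the most abundant at 23.2 ± 9.26 TPM (SD, n = 12), followed by Cfb at 10.4 ± 1.28, Lcn2 at 5.76 ± 6.08 and C3 at 3.72 ± 3.94 TPM. Cp and Cfb overlapped in their ranges, and Lcn2 and C3 spanned from 0 and 0.203 TPM to 16.2 and 12.3 TPM. This order did not hold within the sets of replicates, since Lcn2 was at 11 TPM and Cfb at 10.3 TPM in replicates 1 to 3, and Lcn2 and C3 were at 0.494 and 0.604 TPM, below Slpi at 0.807 TPM, in replicates 4 to 6. Slpi was at 0.854 ± 0.592 and Saa3 at 0.572 ± 0.187 TPM. In the 12 flow and static libraries Hp did not exceed 0.11 TPM and Saa2 did not exceed 0.237 TPM. Saa1 was listed at 0 in all 20 libraries of both tables. In the siRNA libraries the order was another, with Saa3 first at 23.8 ± 6.36 TPM (SD, n = 8), then Cp at 13 ± 3.74 and Cfb at 9.6 ± 1.57 TPM, and Lcn2, C3, Slpi and Hp each under 1 TPM in every library.

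**Figure D1:**
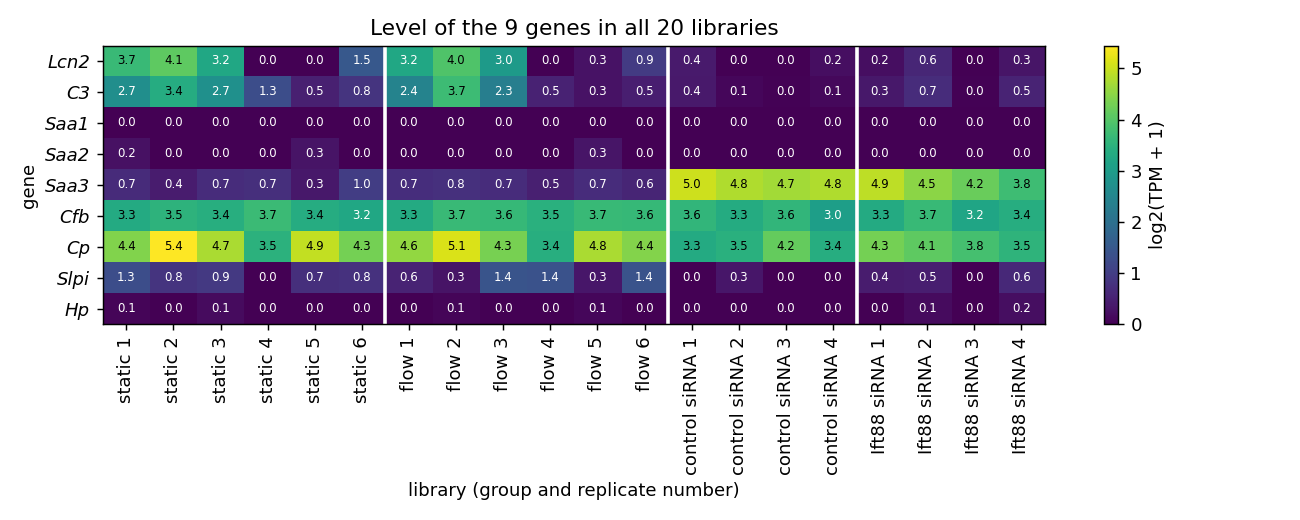
Level of the 9 genes as log2(TPM + 1), printed in each cell and coloured from dark (0) to yellow, in the 6 static, 6 flow, 4 control siRNA and 4 Ift88 siRNA libraries (columns, by replicate number). Lcn2 and C3 were high in replicates 1 to 3 of static and flow cells, Saa3 was high in the siRNA libraries, which come from a separate table, and Cfb varied little.

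The cell type was checked against marker genes. Among the 9 markers of epididymal principal cells, Cftr reached a mean of 1 TPM in both tables. Aqp9, the water channel that marks these cells in the tissue, was lower. Its means were 0.191 TPM in replicates 1 to 3 and 0.151 TPM in replicates 4 to 6. Lcn5, Lcn8, Rnase10, Adam7 and Slc9a3, of the same list, did not exceed 0.275 TPM in any library. Of 6 epithelial markers, Krt18, Krt19 and Cldn4 reached 1 TPM on average over the flow and static libraries. Of 6 hepatocyte markers 0 did so in either table, and of 6 neutrophil markers Cxcr2 and of 4 endothelial markers Kdr alone did so, in the siRNA table. Of 6 fibroblast markers only Dcn did, in the flow and static table. Among 6 macrophage markers Cd14 and Cd68 were present in both tables and Lyz2 reached 2.38 TPM in the siRNA table, while the defining markers Ptprc and Adgre1 did not exceed 0.0878 and 0.0813 TPM in any library. Crisp1, another principal cell marker, was at 0 in all 20 libraries, and Epcam did not exceed 0.332 TPM. In bulk RNA, fewer cells that express a gene and less of its RNA per cell cannot be told apart. Between 15292 and 16682 genes were above 0 in each of the 20 libraries.

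Under flow no acute-phase gene passed the test. Of the 4 genes tested 0 were called, where a call needs both an adjusted p under 0.05 in limma and a 1.5-fold change, and 0 had an unadjusted p under 0.05. Over all 11388 genes tested, 0.105% were called, all of them higher, and 3.85% had an unadjusted p under 0.05. The median log2 fold change was -0.16 over these 4 genes, beside -0.026 over all 11388. With the replicate block 0 of the 4 were called too, beside 0.597% of all genes. In a fit of every gene above 0 in at least 1 library, in which all members but Saa1 could be fitted, 0 of these 8 were called, beside 0.0108% of all 18564 genes. The p-values measure the spread between these libraries of 1 cell line.

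Lcn2 was at 11.9, 16.2 and 8.45 TPM in static replicates 1 to 3 and at 0, 0 and 1.82 TPM in static replicates 4 to 6. Under flow it was at 8.41, 14.4 and 6.84 TPM in replicates 1 to 3 and at 0, 0.206 and 0.936 TPM in replicates 4 to 6. The low libraries therefore carried the same replicate numbers in both groups, and static and flow cells overlapped over nearly their whole range. Its log2 fold change under flow was -0.19 with a 95% interval from -2.05 to 1.67 (standard error of the fit, SE, 0.87, limma adjusted p = 0.998). Same-numbered libraries deviated together over all genes, with the difference between replicates 1 to 3 and 4 to 6 included. Once the replicate number entered the fit as a block, the interval narrowed to -0.45 to 0.07 (SE 0.12, limma adjusted p = 0.582). Libraries of replicates 4 to 6, near the lower limit of the values, enter both intervals. Over replicates 1 to 3 only, the log2 fold change was -0.29. Lcn2 was lower under flow in 4 of 6 pairs, higher in 1 and at 0 in both libraries of replicate 4.

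C3 was at 5.42, 9.31 and 5.57 TPM in static replicates 1 to 3 and at 1.44, 0.396 and 0.771 TPM in static replicates 4 to 6. Under flow it was at 4.4, 12.3 and 4.03 TPM and then at 0.436, 0.203 and 0.38 TPM. As for Lcn2, replicate 2 was the highest in both groups and the 6 libraries numbered 4 to 6 were the lowest. The log2 fold change under flow was -0.27 with a 95% interval from -1.64 to 1.11 (SE 0.64, limma adjusted p = 0.998), while the interval from the blocked fit ran from -0.57 to 0.03 (SE 0.14, limma adjusted p = 0.5). C3 was lower under flow in 5 of 6 pairs, by between 0.21 and 0.76 on the log2(TPM + 1) scale. It was higher in replicate 2 by 0.36. The lower pairs include those of replicates 4 to 6, at 1.44 TPM or less. These lie near the lower limit of the values and enter both intervals. Over replicates 1 to 3 only, the log2 fold change was -0.09.

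**Figure D2:**
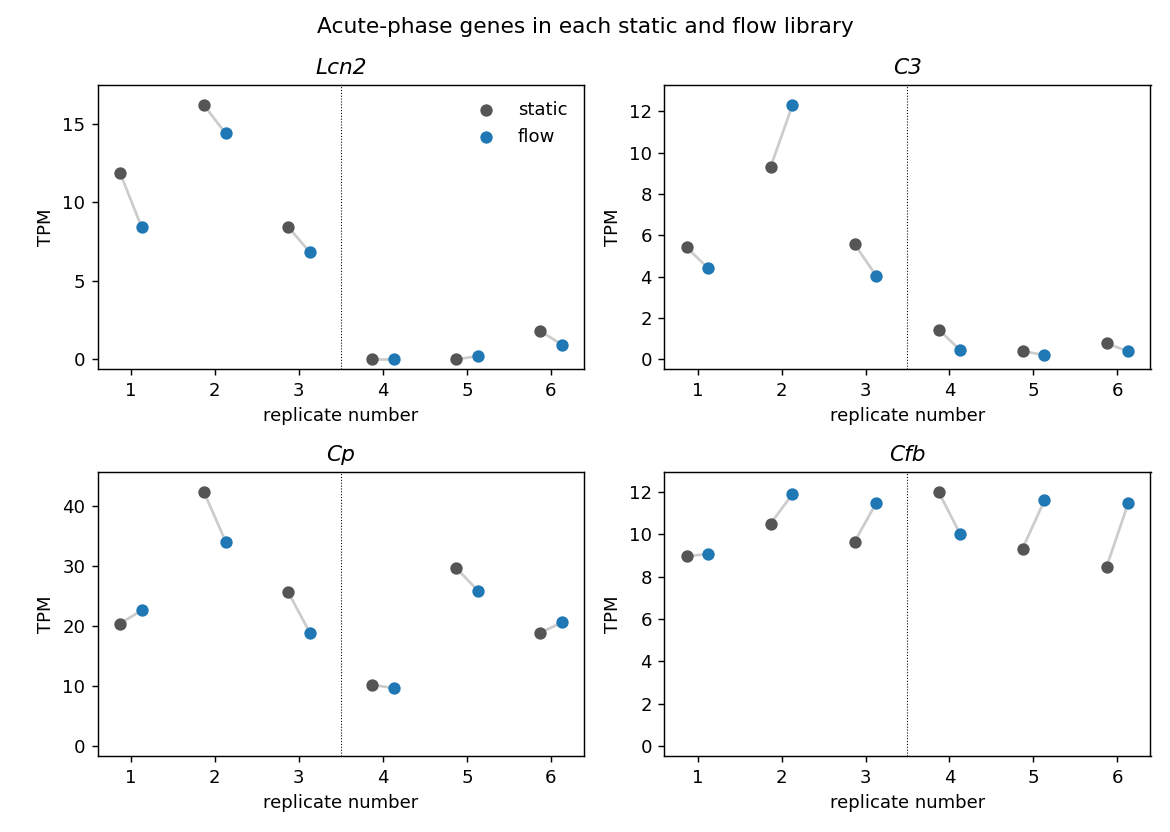
TPM of Lcn2, C3, Cp and Cfb (y axis, from 0) in each static (grey) and flow (blue) library by replicate number (x axis), with a line joining libraries of the same number and a dotted line between replicates 3 and 4. Lcn2 and C3 lay between 4.03 and 16.2 TPM to the left of that line and between 0 and 1.82 TPM to the right of it, whereas Cfb stayed between 8.47 and 12 TPM.

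Cp and Cfb, whose products handle iron and activate complement, were present in every library. Cp was at 20.4, 42.3, 25.7, 10.2, 29.7 and 18.8 TPM in static replicates 1 to 6 and at 22.6, 34, 18.9, 9.67, 25.9 and 20.6 TPM in flow replicates 1 to 6. Both replicate 2 libraries were the highest of their group and both replicate 4 libraries the lowest. Its log2 fold change was -0.12 with a 95% interval from -0.78 to 0.53 (SE 0.31, limma adjusted p = 0.998), or from -0.31 to 0.06 with the replicate block (SE 0.08, limma adjusted p = 0.619). Cfb was at 8.96, 10.5, 9.65, 12, 9.33 and 8.47 TPM in static replicates 1 to 6 and at 9.08, 11.9, 11.5, 10, 11.6 and 11.5 TPM in flow replicates 1 to 6. It was higher under flow in 5 of 6 pairs, all but replicate 4, and the groups overlapped. The log2 fold change of Cfb was 0.15 with a 95% interval from -0.07 to 0.36 (SE 0.1, limma adjusted p = 0.998), so that a change of 1.5-fold lay outside the interval. None of the 4 genes had flow and static libraries that did not overlap, beside 0.544% of all genes tested.

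The remaining genes were low in this table. Slpi was at 1.42, 0.76, 0.86, 0, 0.66 and 0.706 TPM in static replicates 1 to 6 and between 0.216 and 1.68 TPM under flow, with 3 pairs higher and 3 lower. Saa3 was between 0.262 and 0.967 TPM in static cells and between 0.389 and 0.688 TPM under flow, again with 3 pairs in each direction. In the fit without a filter the log2 fold change of Slpi was 0.14 (SE 0.26, limma adjusted p = 1) and that of Saa3 was 0 (SE 0.1, limma adjusted p = 1). Saa2 was above 0 in 2 static libraries and 1 flow library, and Hp in 2 of each.

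Within the first set of libraries the strongest pattern of Lcn2 and C3 followed the replicate number. Static replicates 1 to 3 had a mean of 12.2 ± 3.87 TPM of Lcn2 (SD, n = 3) and static replicates 4 to 6 had 0.607 ± 1.05 TPM, a difference of -3.18 in mean log2(TPM + 1). The flow libraries, whose numbers run in parallel, had 9.9 ± 4.02 and 0.381 ± 0.492 TPM, a difference of -2.98. For C3 the means were 6.76 ± 2.2 and 0.868 ± 0.528 TPM in static cells and 6.9 ± 4.65 and 0.34 ± 0.122 TPM under flow, differences of -2.06 and -2.41. In both genes and both groups the lowest of replicates 1 to 3 lay above the highest of replicates 4 to 6. Among the 11388 genes averaging 1 TPM or more, Lcn2 had the lowest difference of all in static cells and under flow, and C3 ranked 3 from the bottom in static cells and 5 under flow. These ranks describe the contrast that the genes were chosen on.

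Cp shared this pattern in part and Cfb did not. The difference of Cp between replicates 4 to 6 and 1 to 3 was -0.62 in static cells and -0.47 under flow, with overlapping libraries, which ranks it 129 and 251 from the bottom, and that of Cfb was 0.02 and 0.04, at ranks 3078 and 4553. With 1 library left out the difference of Cp ran from -0.96 to -0.24 in static cells. Under flow it ran from -0.75 to -0.08, the latter without flow replicate 4. Slpi went from a mean of 1.01 to 0.455 TPM in static cells and from 0.787 to 1.16 TPM under flow, and Saa3 stayed near its mean of 0.572 TPM. Thus 2 of the 4 genes tested were past 1.5-fold without overlap in static cells, where 4.34% of all genes were (1.01% lower), and the same 2 under flow, where 3.26% were (0.738% lower). Both were lower in both groups, as were 59 of the 11388 genes (0.518%). Nothing is read from these shares, since the rule used this contrast. The median difference of the 4 genes was -1.34 in static cells and -1.44 under flow, beside 0.14 and 0.08 for all genes. Other measures were set beside the replicate number too. The mitochondrial share and the sum of the macrophage markers overlapped between the sets of replicates. The mitochondrial share of TPM was between 6.06% and 9.6% in replicates 1 to 3 and between 4.4% and 7.36% in replicates 4 to 6, and the summed TPM of the 6 epithelial markers was between 66.9 and 83 in the former and between 108 and 293 in the latter. Krt18 (means of 28.6 and 75.5 TPM) and Cldn4 (22.7 and 73.8 TPM) were higher in replicates 4 to 6 and Krt19 lower (20.7 and 11 TPM), each past 1.5-fold without overlap in both groups. The sum of the 6 macrophage markers was between 34.5 and 55 and between 36.8 and 85.1 TPM, with Cd68 at means of 13.6 and 29.2 TPM and Cd14 at 30.3 and 25.3 TPM, and the hepatocyte markers summed to between 0.128 and 2.56 TPM in all 12 libraries. Their part in the result was not tested. The labels do not say what separates replicates 1 to 3 from 4 to 6.

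**Figure D3:**
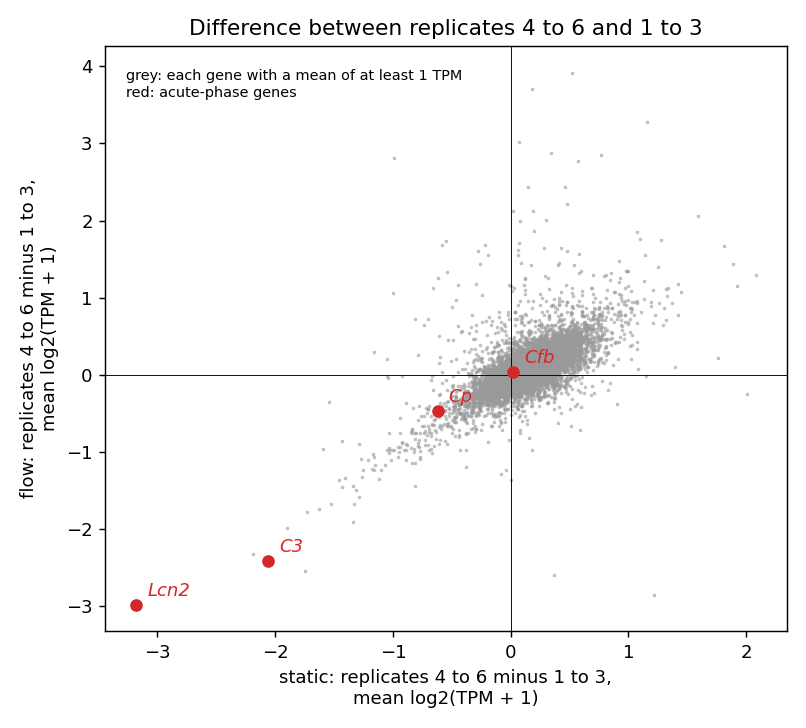
Difference in mean log2(TPM + 1) between replicates 4 to 6 and replicates 1 to 3 in static cells (x axis) and under flow (y axis) for each of the 11388 genes averaging 1 TPM or more (grey) and the 4 acute-phase genes among them (red). Lcn2 (-3.18 and -2.98) and C3 (-2.06 and -2.41) lie at the lower left end, Cp lies at -0.62 and -0.47 and Cfb at 0.02 and 0.04.

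Whether flow acted differently in replicates 4 to 6 than in 1 to 3 was tested as an interaction. Lcn2 and C3 passed the filter through replicates 1 to 3 and had means of 0.494 and 0.604 TPM in replicates 4 to 6, with Lcn2 at 0 in 3 of these 6 libraries, so a flow effect there lies at the lower limit of the values and nothing is read from their interaction. The difference between the flow effects was 0.15 for Cp and 0.01 for Cfb. With the replicate block the 95% interval was from -0.23 to 0.53 for Cp (SE 0.17) and from -0.41 to 0.44 for Cfb (SE 0.19), and without it from -1.1 to 1.39 (SE 0.57) and from -0.43 to 0.46 (SE 0.2), with a limma adjusted p of 1 in each. Neither was called nor had an unadjusted p under 0.05 in limma. Over all 11388 genes 0% were called and 2.09% had an unadjusted p under 0.05, and 0.158% were called with the block. In the blocked fit a difference of 1.5-fold lay outside both intervals.

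**Figure D4:**
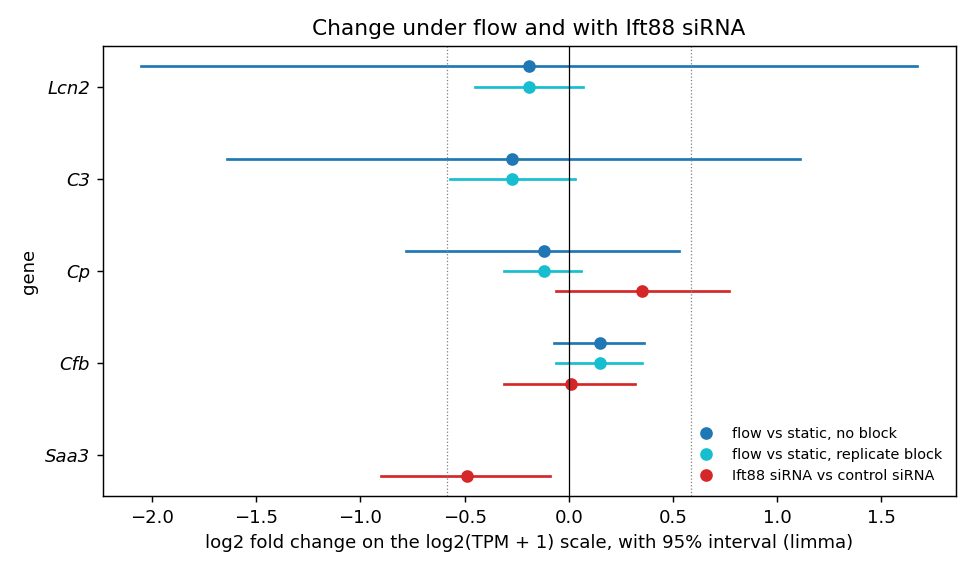
Log2 fold change on the log2(TPM + 1) scale with its 95% interval from limma (x axis) for the 5 genes tested in at least 1 table (y axis), for flow against static without (dark blue) and with (light blue) the replicate block and for Ift88 siRNA against control siRNA (red). Dotted lines mark 1.5-fold in each direction. The interval of Lcn2 runs from -2.05 to 1.67 without the block and from -0.45 to 0.07 with it, and the interval of Saa3 from -0.9 to -0.09.

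Across the 12 flow and static libraries Lcn2 and C3 rose and fell together, with r = 0.936 (Spearman's rho 0.845) on the log2(TPM + 1) scale. The libraries form 2 clusters by replicate number, and r was 0.877 over the 6 libraries of replicates 1 to 3 and 0.0048 over the 6 of replicates 4 to 6, where both genes were near 0. Over the 8 siRNA libraries, where both were near 0 too, it was 0.922. Within replicates 1 to 3 Cp followed them, with r = 0.819 with Lcn2 and 0.87 with C3, and over replicates 4 to 6 these values were 0.235 and -0.612. These values describe libraries that share replicate numbers and normalisation, and they carry no test. Among genes averaging 1 TPM or more, the 5 most like Lcn2 over the 12 libraries, leaving out the acute-phase genes themselves, were Ppm1h (r = 0.915), Ccl5 (0.915), Hvcn1 (0.914), Myg1 (0.906) and Ptprf (0.903). Over the 8 siRNA libraries, where Lcn2 was at most 0.507 TPM, their r was -0.212, 0.242, 0.0527, 0.145 and -0.36. Ccl5, which encodes a chemokine, was between 353 and 396 TPM in replicates 1 to 3 and between 84.3 and 143 TPM in replicates 4 to 6. The 5 most like C3 were Mal (r = 0.972), Gja4 (0.967), Vcam1 (0.959), Nop53 (0.954) and Eva1a (0.948), with -0.159, -0.545, 0.293, 0.656 and 0.0103 over the siRNA libraries. Vcam1, which encodes an adhesion molecule for leukocytes, was between 6.76 and 19.2 TPM in replicates 1 to 3 and between 3.54 and 4.83 TPM in replicates 4 to 6, and between 14.6 and 28.6 TPM with control siRNA, where C3 was near 0.

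In the second set of libraries, silencing of Ift88 was checked first. Ift88 was at 4.14 ± 0.0541 TPM (SD, n = 4) with control siRNA and at 1.3 ± 0.326 TPM (SD, n = 4) with Ift88 siRNA, which is -1.17 on the log2(TPM + 1) scale (SE 0.13, limma adjusted p = 0.00212). Of the 3 acute-phase genes tested 0 were called, beside 0.223% of the 11209 genes tested, and 1, Saa3, had an unadjusted p under 0.05, beside 13.9% of all genes. In the fit of every gene above 0 in at least 1 library, 0 of the 7 members fitted were called, beside 0.0313% of 19195 genes, and Saa1 and Saa2 were at 0 in all 8 libraries.

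Saa3 was at 31.8, 26.9, 24.7 and 26.8 TPM in control siRNA replicates 1 to 4 and at 28.8, 21.6, 17.4 and 12.5 TPM in Ift88 siRNA replicates 1 to 4. The first Ift88 siRNA library lay above 3 of the 4 control libraries, and the other 3 lay below all of them. The log2 fold change was -0.49 with a 95% interval from -0.9 to -0.09 (SE 0.19, limma adjusted p = 0.276), which did not pass the test over all genes. Its level of 12.5 to 31.8 TPM in this table stands beside 0.262 to 0.967 TPM in the table of flow and static libraries. The tables were made and normalised separately and the cells were transfected, so the difference was not tested and its source cannot be told apart. Other genes differed between the tables too. Cldn4 had means of 48.2 TPM over the flow and static libraries and 2920 TPM over the siRNA libraries. Cd68 had means of 21.4 and 93.8 TPM, while Krt19 went the other way, at 15.8 and 7.29 TPM.

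Cp was at 9.07, 10, 16.7 and 9.46 TPM with control siRNA and at 18.8, 15.9, 13.2 and 10.6 TPM with Ift88 siRNA. The groups overlapped because of control replicate 3, and the log2 fold change was 0.35 with a 95% interval from -0.06 to 0.77 (SE 0.19, limma adjusted p = 0.438). Cfb was at 9.61 ± 1.84 TPM (SD, n = 4) with control siRNA and 9.6 ± 1.54 TPM with Ift88 siRNA, a log2 fold change of 0.01 with a 95% interval from -0.31 to 0.32 (SE 0.14, limma adjusted p = 0.993). None of the 3 genes had groups that did not overlap, beside 8.58% of all genes tested. The other genes were near 0 in these libraries. Lcn2 was at 0.322 TPM or less with control siRNA and 0.507 TPM or less with Ift88 siRNA, and C3 was between 0.0255 and 0.296 TPM and between 0.0252 and 0.627 TPM. Slpi was above 0 in 1 of 4 control libraries and 3 of 4 Ift88 siRNA libraries, with 0.542 TPM as its highest value.

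**Figure D5:**
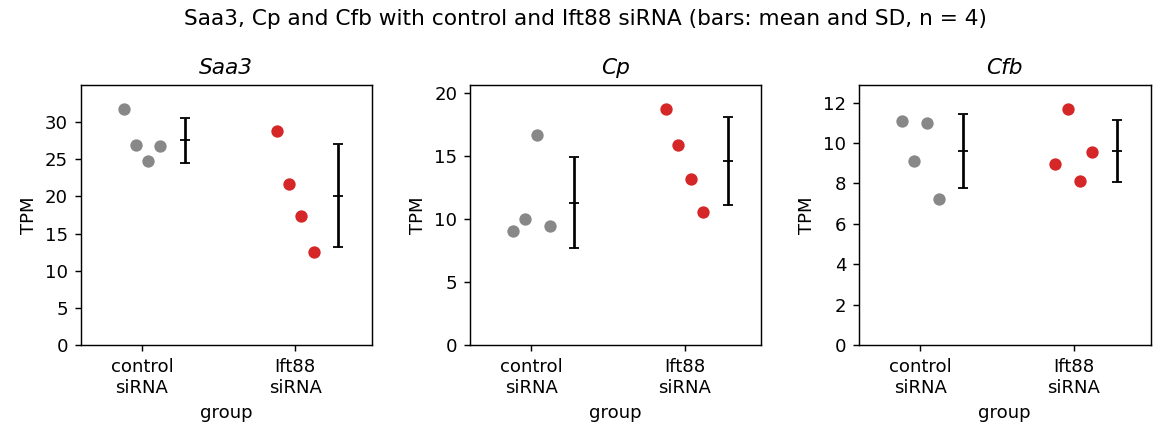
TPM of Saa3, Cp and Cfb (y axis, from 0) in each library with control siRNA (grey) and Ift88 siRNA (red), in order of replicate number, with the mean and SD (n = 4) in black. Saa3 ran from 24.7 to 31.8 TPM with control siRNA and from 12.5 to 28.8 TPM with Ift88 siRNA, and the groups overlapped in all 3 genes.

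The pathway around these genes was read from 8 lists. In limma 0 genes of each list were called under flow and in the interaction. At an unadjusted p under 0.05 were 1 cytokine or receptor gene, 4 regulators and 1 interferon-stimulated gene under flow, and 2 regulators and 1 gene of iron, haem and copper handling in the interaction, beside 3.85% and 2.09% of all genes. With the replicate block 11.1% of all genes had an unadjusted p under 0.05 under flow. There were 6 of 14 regulators, 6 of 12 interferon-stimulated genes, 3 of 6 other acute-phase genes and 2 of 10 cytokine or receptor genes. The other lists held 2 of 10 genes of iron, haem and copper handling, 1 of 7 complement genes and 1 of 1 other lipocalin. In the list of antiproteases it was 0 of 2. Of the listed genes 0 were called. Of 21 inducing cytokines and receptors 10 were tested, with a median log2 fold change under flow of 0.05. The receptor genes Il17rc, Tnfrsf1a and Il6st were the most abundant, at means of 91.8, 73.6 and 51.6 TPM in replicates 1 to 3 and 144, 85.6 and 74.3 TPM in replicates 4 to 6. The ligand genes Il1b, Tnf, Osm, Il17a, Il22 and Ifng, named after their values were seen, had means under 0.1 TPM in both sets of replicates, and Il6 was at 0.294 and 0.586 TPM, Il1a at 0.52 and 0.711 TPM, Il11 at 0.347 and 0.243 TPM and Il17c at 0.179 and 0.343 TPM. The ligand gene Lif was higher, at means of 4.45 and 5.33 TPM in static replicates 1 to 3 and 4 to 6. Its means were 9.09 and 52.2 TPM in the same replicates under flow and 62.8 TPM in the siRNA table. Lif was not called under flow here (log2 fold change 1.7, SE 0.51, limma adjusted p = 0.49). The paper, with another test at the same thresholds, called more genes under shear and lists Lif among them. Of 15 regulators of signalling and transcription 14 were tested, with Rela (128 and 145 TPM), Nfkb2 (90.8 and 102 TPM) and Jak1 (85.8 and 104 TPM) the most abundant. The medians under flow were 0.09 for the regulators and -0.026 for all genes.

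Of 22 other acute-phase genes 6 were tested, with a median log2 fold change under flow of -0.16. Most abundant were the metallothionein genes Mt1 (1730 and 1130 TPM in replicates 1 to 3 and 4 to 6) and Mt2 (1250 and 949 TPM), whose products bind zinc and copper, and Cd14 (30.3 and 25.3 TPM), which encodes a receptor of endotoxin. Of 26 other complement genes 7 were tested, led by the regulators Cr1l (32.9 and 35.3 TPM) and Cd59a (13.9 and 18.4 TPM) and the protease gene C1ra (12.9 and 8.23 TPM). Of 15 genes of iron, haem and copper handling 10 were tested, led by the ferritin genes Fth1 and Ftl1 and by Hmox1, which encodes the haem-degrading enzyme. Of 11 other lipocalins only Ptgds reached 1 TPM, at 36.8 and 32.3 TPM, and of 19 antiproteases, their targets and antimicrobial proteins 2 did, Grn and Serpinb1a. The medians under flow of these last 4 lists were -0.07, -0.03, -0.38 and -0.2.

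Some of these genes also differed between replicates 4 to 6 and 1 to 3, and the following are named because of their values. Lbp, which encodes the endotoxin-binding acute-phase protein, was between 6.4 and 18.5 TPM in replicates 1 to 3 and between 0.404 and 2.97 TPM in replicates 4 to 6, with differences of -1.75 in static cells and -2.55 under flow. Slc40a1, which encodes the iron exporter ferroportin, was between 11.4 and 25.9 TPM and between 1.96 and 10 TPM, and C1s1, which encodes a protease of the first complement component, had differences of -1.25 and -1.23, overlapping under flow. Others were higher in replicates 4 to 6. Hmox1 went from 83.6 to 182 TPM and Ptx3, which encodes a pentraxin, from 1.22 to 4.2 TPM. Nfkbia, which encodes the inhibitor of NF-kB and is itself its target, differed by -0.62 in static cells and by 1.25 under flow. Of the 6 other acute-phase genes tested, 2 were past 1.5-fold without overlap lower and 1 higher in static cells, where 4.34% of all genes were past it, and 1 lower and 1 higher under flow, where 3.26% were.

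With Ift88 siRNA, 3 of the 9 interferon-stimulated genes tested were called higher, beside 0.223% of all genes, Oasl1 (log2 fold change 1.01, SE 0.17, limma adjusted p = 0.0238), Ifit1 (0.97, SE 0.11, limma adjusted p = 0.00206) and Isg15 (0.79, SE 0.11, limma adjusted p = 0.00855), and 0 genes of the other 7 lists were called. Cxcl10, of the same list, had a log2 fold change of 0.57 (SE 0.06, limma adjusted p = 0.00149), just under the fold threshold. The complement protease genes C1ra and C1s1 had log2 fold changes of 0.51 (SE 0.1, limma adjusted p = 0.0489) and 0.72 (SE 0.19, limma adjusted p = 0.12), so that C1ra missed the fold threshold and C1s1 the adjusted p. Of 8 complement genes tested, 4 had an unadjusted p under 0.05, beside 13.9% of all genes, and the median log2 fold change was 0.17, beside 0.017 for all 11209 genes.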

How the data were processed

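Libraries were grouped by the sample labels. The authors deposited TPM per gene, one table for each set of libraries. According to the labels and the study's methods, reads were trimmed (Trimmomatic in the methods, fastp 0.20.0 in the submitters' processing notes, with FastQC 0.11.8 and MultiQC 1.8), assigned to the Ensembl mouse transcriptome with kallisto 0.46.2 and summarised with tximport. TPM are no counts, so no count test was used, and depth is unknown. Here log2(TPM + 1) was fitted with limma 3.58.1 (R 4.3.3; lmFit, eBayes with trend) over genes averaging 1 TPM or more, p-values were adjusted after Benjamini and Hochberg, and calls needed an adjusted p under 0.05 beside a 1.5-fold change. The pseudocount of 1 understates changes of low genes. The code was tested on simulated data. Replicates 1 to 3 and 4 to 6 were compared as a description. All members are named. Of each list, genes called and the 3 most abundant are named, and others are named with a remark. The members and lists were chosen with earlier results of these data known. Deviations from the group means of same-numbered flow and static libraries correlated over genes. In replicates 1 to 6 the correlations were 0.294, 0.463, 0.425, 0.468, 0.662 and 0.6. This was taken as pairing for the blocked fits, although libraries of other numbers were not compared. The difference between replicates 1 to 3 and 4 to 6 enters these correlations, so pairing by number is not shown. The series text names 4 experiments, while 6 libraries per group were analysed here. Positions and promoters are on GRCm38, not the build of the authors' annotation, and none was converted. Alternatives were library weights, no filter, no fold threshold, the replicate block, a pseudocount of 0.1, scaling by median of ratios, leaving out each library, replicates 1 to 3 or 4 to 6 only and flow replicate 6 as static. The values of 1 marker gene are not reported here. Figures and sequences were handled in Python 3.11.15 (matplotlib 3.10.9, pandas 2.3.3, numpy 2.4.6).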

Additional observations from a re-analysis of the deposited data

Results flagged for a closer look

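In each group of 4 or 6 libraries the highest and lowest value of each gene were compared with the others by the ratio of their gap to the range (Dixon's test, at the 95% critical value for the group's size). Of 29 groups tested, 3 held a library that stood apart. The ratio was taken on the log2(TPM + 1) scale, and a library alone above 0 has a ratio of 1 whatever its value. The count is therefore not set against chance. Cp in control siRNA replicate 3 was at 16.7 TPM, with the other 3 control libraries between 9.07 and 10 TPM, a gap of 0.842 of the range. The other 2 were near the limit of detection. Saa2 was at 0.237 TPM in flow replicate 5 and at 0 in the other flow libraries, a gap of 1 of the range, and Slpi was at 0.251 TPM in control siRNA replicate 2 and at 0 in the other control libraries, a gap of 1 of the range too.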

How the results depend on the processing

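The number of acute-phase genes called was 0 under flow, with Ift88 siRNA and, for Cp and Cfb, in the interaction in every alternative run, and the number past 1.5-fold without overlap between replicates 4 to 6 and 1 to 3 was 2 under flow in every alternative and 2 or 3 in static cells (3 without static replicate 5). The small changes of Lcn2, C3 and Cp under flow had no stable sign, while that of Cfb was positive, between 0.05 and 0.2, in all 20 alternatives. Leaving out single libraries, the log2 fold change ran from -0.61 to 0.21 for Lcn2, from -0.69 to 0.03 for C3 and from -0.34 to 0.08 for Cp. With library weights it was -0.91, -0.89 and -0.52, and with a pseudocount of 0.1 it was -0.04 for Lcn2 and -0.57 for C3. With flow replicate 6 counted as static it was 0.16 for Lcn2 and 0.17 for C3. With Ift88 siRNA, Cfb was at -0.02 with median-of-ratios scaling and between -0.11 and 0.07 with a library left out, while Saa3 stayed negative, between -0.68 and -0.3, with an adjusted p from limma between 0.087 (replicate block) and 0.505 over all its alternatives. A pseudocount of 0.1 moved the differences between replicates 4 to 6 and 1 to 3 to -5.47 for Lcn2 and -2.93 for C3 in static cells and to -4.91 and -3.84 under flow. The replicate block changed no call of these genes. It raised the number of all genes called under flow from 12 to 68 and with Ift88 siRNA from 25 to 44, although the siRNA numbers were not taken to pair the libraries (correlations of deviations 0.0464, 0.00276, 0.259 and 0.176, with 4 of 8 libraries correlating best with their own number), and in the interaction from 0 to 18. The number of all genes called was also 2 with no filter, 28 with median-of-ratios scaling, 86 with library weights, 0 with flow replicate 6 as static and 5 to 87 with a library left out (87 without flow replicate 2, 5 without flow replicate 4) under flow. With Ift88 siRNA it was 6 with no filter, 48 with library weights, 71 with no fold threshold and 11 to 23 with a library left out (11 without replicate 1 of either group). In the interaction it was 8 with library weights and 34 without flow replicate 4. The fits with no filter cover genes above 0 in at least 1 library. Lcn2 and C3 are not given within replicates 4 to 6 alone, where they were under the filter. For values near 0 TPM the unknown read depth is the limit.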
